A study of Mus musculus with 48 samples.

Results

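Livers of mice that received corticosterone together with atglistatin were compared between animals with high and animals with low insulin. The 14 mice of this treatment were divided by the insulin value in their sample labels, 7 above 15 and 7 below 12, out of 48 libraries in the series. No expression value entered the division. All 14 were male C57BL6J mice whose drinking water held corticosterone (100 ug/ml) for 2 weeks and whose chow held atglistatin (571 mg/kg). Corticosterone is the main glucocorticoid of rodents, and atglistatin inhibits adipose triglyceride lipase, the enzyme (gene Pnpla2) that begins the breakdown of stored triglyceride. The drug was eaten, so its action was not limited to the liver, and no untreated mouse is part of the comparison. A further 14 corticosterone-treated mice on the same chow without atglistatin served to ask whether insulin went with the same genes there. Mice given 1% ethanol vehicle on either diet (10 each) are cited for levels only. Ages were not found in the labels. RNA of frozen, powdered liver was read by QuantSeq, which sequences the 3′ end of polyadenylated transcripts, and libraries are named here by the number in their label.

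Insulin reaches the liver through the portal vein and binds its receptor (Insr). The signal runs through the docking proteins IRS1 and IRS2 to the kinase AKT, which keeps FoxO transcription factors out of the nucleus and raises the activity of SREBP1c. In the liver it is known to restrain FoxO-driven genes such as Igfbp1, G6pc and Pck1, and to raise the fatty acid synthesis genes. Glucocorticoids are known to raise insulin in mice by making tissues resistant to it, so in such animals a high insulin value need not mean a strong hepatic insulin signal.

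Insulin ran from 17 to 38, with a median of 28.8, in the 7 high-insulin mice. It ran from 2.19 to 10.7, with a median of 8.45, in the 7 low-insulin mice. The labels give no unit for insulin or glucose. Fed glucose, which was not used for the division, averaged 135 ± 36.8 (SD, n = 7) in the high-insulin mice and 107 ± 10 (n = 7) in the low-insulin mice. This difference of 28.6 passed an exact 2-sided permutation test (p = 0.0291), and 4 of the 7 high-insulin mice lay above every low-insulin mouse. Only replicate 26 was labelled diabetic, with the highest insulin and a glucose of 212. Without it the difference was 15.8 (exact permutation p = 0.0542). Without replicate 41 the difference was 28.5 (exact permutation p = 0.0536), nearly the same size from fewer mice. The call was lost in either case.

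**Figure D1:**
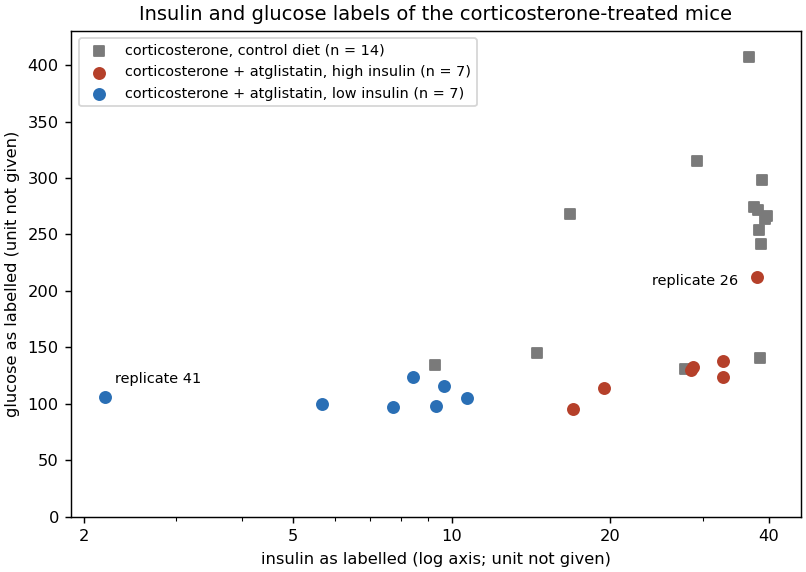
Glucose label (vertical axis, from 0) against insulin label (horizontal log axis) for each corticosterone-treated mouse, with no unit given for either; points are mice. The 7 high-insulin mice on atglistatin had glucose values of 95 to 212 and the 7 low-insulin mice 97 to 124, with replicate 26 at the 212.

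Total counts ran from 12088450 to 21175603 in the high-insulin libraries and from 10832711 to 19578672 in the low-insulin libraries. Replicate 41, whose insulin of 2.19 was the lowest of the 14, stood apart from the rest. On the first principal component of log2 CPM (counts scaled to a common library size), which held 33.8% of the variance, it lay at 45.7 while the other 13 libraries lay between -7.9 and 0. On the second component (22.1%), the high-insulin replicates 13, 24 and 26 lay between -21.9 and -15.2, and no low-insulin library lay below -2.9. Label numbers were uneven too, since 6 of 7 high-insulin libraries but 2 of 7 low-insulin libraries have numbers below 30. The labels do not say whether these numbers stand for a day or a run. The 11 hepatocyte markers in the table, albumin among them, summed to a median of 117000 CPM at high and 125000 CPM at low insulin.

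**Figure D2:**
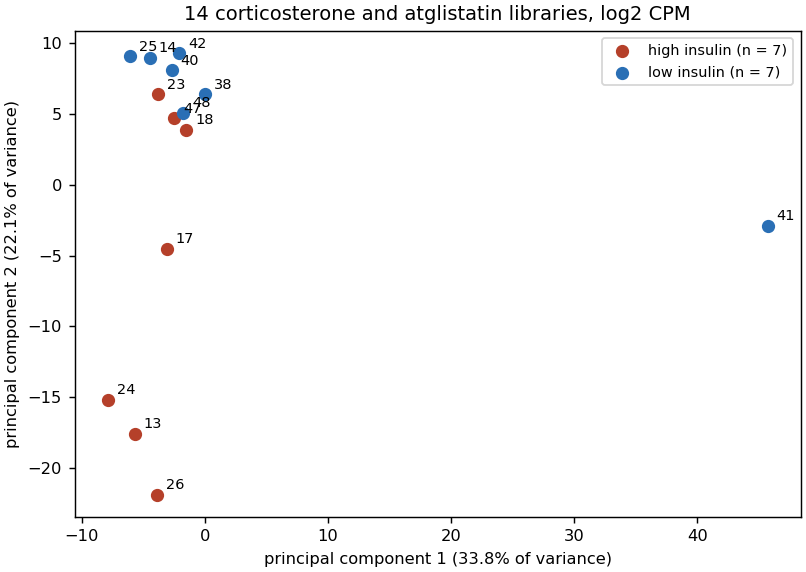
First (horizontal) and second (vertical) principal components of log2 CPM in the 14 libraries, each point a library with its number; percentages are shares of variance. Replicate 41 lies alone at 45.7 on the first component, and replicates 13, 24 and 26 lie lowest on the second.

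With all 14 libraries, no gene separated the insulin groups at the threshold used throughout. The quasi-likelihood test of edgeR was run on 11830 genes, of which 0 (0%) had a Benjamini-Hochberg adjusted p of at most 0.05, and the smallest adjusted p was 0.164. At an unadjusted p of at most 0.05, edgeR gave 1816 genes, 15.4% of those tested, of which 990 (8.37%) were higher and 826 (6.98%) were lower with high insulin. Without replicate 41 the calls were again 0 of 11979, with 1885 genes (15.7%) at an unadjusted p of at most 0.05, 1009 of them (8.42%) higher and 876 (7.31%) lower. Without replicate 26 the unadjusted count was 1309 of 11821 (11.1%), with 699 higher (5.91%) and 610 lower (5.16%). With all 14 libraries it was 812 of 11830 with the range of label numbers as a term and 803 of 11830 with glucose as a term. Without either term it was the 1816 given above. The smallest adjusted p in these 2 edgeR fits was 0.706 and 0.713. DESeq2 called 98 of 11830 genes on the same libraries, 70 higher and 28 lower. Its default settings, used here, can replace outlying counts in groups of 7. Without replicate 41 DESeq2 called 109 of 11979 genes where edgeR called 0, so the count depended on the tool. DESeq2 gave no adjusted p to 1835 genes with all libraries and to 4181 without replicate 41. Its adjustment therefore covered fewer genes than that of edgeR. In simulated data of this design, edgeR recovered 70% of 100 genes changed 1.5-fold and 95% of 100 genes changed 2-fold. The simulation drew genes independently, took changed genes only above a minimum CPM, and held no outlying library such as replicate 41. It therefore cannot say what share of such differences would be found in these livers. Each gene below is therefore given with its values, and none of the differences between the groups of 7 passed the adjusted edgeR test. Beside the gene lists, the shares just given for all genes are the background against which a list's count should be read.

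The 10 genes with the smallest p differed by small amounts. Spata13, which encodes a guanine nucleotide exchange factor, ran from 9.80 to 13.6 CPM with a median of 11.9 at high insulin, and from 14.5 to 19.8 with a median of 17.2 at low insulin. The groups did not overlap, and the log2 difference of -0.53 ± 0.09 (SE) had the smallest p of all genes (edgeR adjusted p = 0.164, DESeq2 adjusted p = 0.00101). Groups that did not overlap were rare, found for 28 of 11830 genes (0.237%), 15 higher (0.127%) and 13 lower (0.11%). Pxdc1 was also without overlap on the low side at high insulin (log2 difference -0.38 ± 0.08). Ppp2r3c, a regulatory subunit of protein phosphatase 2A, Snrnp27, a splicing factor, and Rpl9-ps6, a ribosomal protein pseudogene whose reads may come from its parent gene, lay above the low-insulin group without overlap (0.46 ± 0.10, 0.44 ± 0.10 and 1.01 ± 0.23). The other genes of the 10 were Pole4 (0.56 ± 0.12), Marcks (-0.45 ± 0.10), Zfhx3 (-0.42 ± 0.09), Apoc3 (0.62 ± 0.14) and Cela1 (0.63 ± 0.14), each with an adjusted p of 0.192 in edgeR. In the fit without replicate 41, Dct, which was picked after its values were seen, came first. It measured 30.5 to 72.0 CPM at high insulin and 14.7 to 23.3 in the 6 remaining low-insulin libraries, a log2 difference of 1.09 ± 0.18 (edgeR adjusted p = 0.111).

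Of 24 genes of insulin receptor signalling and FoxO targets, 0 were higher and 4 were lower at an unadjusted p of at most 0.05 in edgeR, and the median log2 difference was -0.05 against -0.005 over all genes. The receptor gene Insr measured 29.4 to 42.9 CPM (median 34.9) at high insulin and 32.4 to 43.3 (median 37.8) at low insulin. The groups overlapped fully, with a log2 difference of -0.06 and a 95% interval from -0.25 to 0.14. Irs2, a docking protein that FoxO factors raise in fasting, also overlapped (median 10.5 against 13.2 CPM, log2 difference -0.02, interval -0.49 to 0.45). Irs1, the other docking protein, ran from 15.3 to 20.5 CPM at high insulin and from 17.1 to 28.4 at low insulin (-0.30 ± 0.11). Enpp1, an ecto-enzyme that can bind and inhibit the insulin receptor, had medians of 10.1 and 14.8 CPM (-0.47 ± 0.12), and the adaptor Gab1 had 5.75 and 7.24 (-0.30 ± 0.13). All 7 high-insulin libraries lay below the low-insulin mean for Irs1 and Enpp1, and the ranges of these 3 genes overlapped.

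Igfbp1 and Igfbp2 encode secreted proteins that bind insulin-like growth factors, and both are known to be kept low by insulin. Igfbp1 measured 11.4 to 50.1 CPM (median 24.7) at high insulin and 7.21 to 468 CPM (median 23.7) at low insulin, where replicate 41 held the 468. With it the log2 difference was -1.45 ± 0.79, and without it 0.62 ± 0.36. Igfbp2 measured 41.6, 20.1, 16.5, 25.4, 15.7, 11.6 and 41.3 CPM in high-insulin replicates 13, 17, 18, 23, 24, 26 and 47. In the low-insulin replicates 14, 25, 38, 40, 42 and 48 it lay between 23.4 and 40.3, and replicate 41 had 186. The ranges overlapped, with high-insulin replicates 13, 47 and 23 above low-insulin replicate 38. The log2 difference was -1.21 ± 0.43 (edgeR unadjusted p = 0.0121) with replicate 41 and -0.52 without it.

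The stretches of 240 bases that begin 250 bases before a RefSeq start of each of the 2 genes show how these differ in sequence (GRCm38.p6, plus strand, 5′ to 3′). Capitals mark the letters of the insulin response sequence of Igfbp1, searched as CAAAACA or CAAAATA and their reverse complements TGTTTTG and TATTTTG.
Igfbp1, chr11:7197537-7197776: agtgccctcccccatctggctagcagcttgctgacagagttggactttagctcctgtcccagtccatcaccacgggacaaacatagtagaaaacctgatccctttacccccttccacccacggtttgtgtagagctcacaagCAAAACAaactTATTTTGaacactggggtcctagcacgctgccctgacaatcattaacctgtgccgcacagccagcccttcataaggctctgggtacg
Igfbp2, chr1:72824230-72824469: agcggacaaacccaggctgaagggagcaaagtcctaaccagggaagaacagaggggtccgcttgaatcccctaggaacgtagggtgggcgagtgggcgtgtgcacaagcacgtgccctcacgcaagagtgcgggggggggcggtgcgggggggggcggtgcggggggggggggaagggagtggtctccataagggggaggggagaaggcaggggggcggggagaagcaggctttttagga
Igfbp1 holds 2 matches, CAAAACA starting 108 bases before the start and TATTTTG starting 97 bases before it. Igfbp2 holds 0 matches in this window, and neither gene holds the forkhead motif GTAAACA or TGTTTAC there. Igfbp2 has another RefSeq start, whose 240 bases (chr1:72825137-72825376, not printed) also hold 0 matches of either motif. Of 32851 RefSeq promoter windows of 300 bases, 10.2% hold the insulin response letters and 3.65% the forkhead letters. In the GRCm38 annotation the gene Igfbp1 lies at chr11:7197782-7202546 and Igfbp2 at chr1:72824503-72852474, both on the plus strand.

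Genes of fatty acid synthesis were mixed in direction. Of 21 genes, 3 were higher and 3 lower at an unadjusted p of at most 0.05 in edgeR, with a median log2 difference of -0.04. Srebf1, the gene of the insulin-driven regulator SREBP1c, measured 21.2 to 46.8 CPM (median 35.4) at high insulin and 16.1 to 87.4 (median 43.6) at low insulin, and it overlapped. Its log2 difference of -0.45 ± 0.27 was -0.60 ± 0.21 without replicate 41, in which Srebf1 was at its lowest. Fasn (172 and 188 CPM), Acly (94.5 and 92.4), Acaca (38.9 and 31.6), Elovl6 (78.1 and 63.8) and Scd1 (760 and 695), enzymes of the pathway, had similar medians and overlapping ranges. Fads1, the delta-5 desaturase of polyunsaturated fatty acids, was without overlap at 89.7 to 201 CPM at high and 205 to 244 at low insulin (-0.57 ± 0.14). Aacs, which activates acetoacetate for lipid synthesis, had medians of 8.87 and 13.7 CPM (-0.90 ± 0.32). Thrsp, a lipogenic gene that responds to carbohydrate, went the other way with medians of 902 and 463 CPM (0.84 ± 0.31), and 6 of 7 high-insulin libraries lay above the low-insulin mean.

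Of 18 genes of glycolysis, fructolysis and glucose sensing, 5 were higher and 0 lower at an unadjusted p of at most 0.05 in edgeR, and the median log2 difference was 0.19. Without replicate 41 the counts were again 5 and 0 and the median was 0.11, and without replicate 26 they were 2 and 0. Khk, ketohexokinase, the first step of fructose use, measured 428 to 942 CPM (median 618) at high and 187 to 528 (median 399) at low insulin, with replicate 41 at the 187. All 7 high-insulin libraries lay above the low-insulin mean (0.67 ± 0.20, and 0.54 without replicate 41). Gckr, which encodes a regulator of glucose phosphorylation, had medians of 104 and 81.7 CPM (0.34 ± 0.11). Liver pyruvate kinase (Pklr) had 219 and 125 (0.64 ± 0.29). Mlxipl, the gene of the carbohydrate sensor ChREBP that drives Khk, Pklr and Thrsp, had medians of 105 and 89.5 CPM and overlapped (0.25 ± 0.22). None of these genes passed the adjusted test.

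Of 17 genes of gluconeogenesis and glucose output, 0 were higher and 1 was lower at an unadjusted p of at most 0.05 in edgeR (median log2 difference 0.07), and the lower gene was Pck2 (-0.61 ± 0.25), the mitochondrial carboxykinase. Replicate 41 held 6.64 CPM of Pck2 against at most 3.54 elsewhere, and without it the log2 difference was -0.31 and the list had 1 gene higher and 0 lower. Pck1, the cytosolic enzyme that insulin is known to repress, measured 1105 to 2059 CPM (median 1393) at high and 1004 to 2241 (median 1346) at low insulin, a log2 difference of 0.07 with an interval from -0.32 to 0.47. G6pc, which releases glucose, had medians of 358 and 298 CPM (0.45 ± 0.24), with replicate 41 at 78.2. Ppargc1a, a coactivator of the pathway, had 13.6 and 11.7 (0.09 ± 0.15). Glud1, glutamate dehydrogenase, from the list of amino acid catabolism, had medians of 704 and 883 CPM (-0.36 ± 0.10), and all 7 low-insulin libraries lay above the high-insulin mean. On that list 0 of 29 genes were higher and 2 lower at this p.

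Cholesterol synthesis genes lay on the low side at high insulin. Of 25 genes, 22 had a log2 difference below 0, and at an unadjusted p of at most 0.05 edgeR gave 0 higher and 5 lower (median -0.23). Without replicate 41 these were 0 and 9, with a median of -0.29, and without replicate 26, the diabetic mouse, 0 and 0 with a median of -0.17. Hmgcs1, the cytosolic HMG-CoA synthase, measured 123 to 332 CPM (median 185) at high and 230 to 369 (median 265) at low insulin (-0.46 ± 0.19). The ranges overlapped, and all 7 low-insulin libraries lay above the high-insulin mean. The same held for Cyp51, lanosterol demethylase (-0.41 ± 0.18). The sterol desaturase Sc5d had medians of 144 and 207 CPM (-0.30 ± 0.13). Insig2, which holds SREBP in the endoplasmic reticulum, overlapped (0.14 ± 0.14), as did Cyp7a1, the rate-limiting enzyme of bile acid synthesis (-0.11 ± 0.25).

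Fat oxidation and lipid droplet genes had overlapping ranges. Of 28 genes of fatty acid oxidation and ketogenesis, 2 were higher and 0 lower at an unadjusted p of at most 0.05 in edgeR (median 0.01). Cpt1a, the gate of mitochondrial fatty acid entry, had medians of 94.4 and 112 CPM. Pdk4 (-0.81 ± 0.51, and -0.12 without replicate 41, which held 8.04 CPM), which spares pyruvate, and Angptl4 (0.13 ± 0.21), an inhibitor of lipoprotein lipase, overlapped. Pnpla2 itself, the target of the drug, had medians of 43.5 and 43.8 CPM, and Plin2, which coats lipid droplets, had 240 and 273. Lpin1, a phosphatidate phosphatase that glucocorticoids raise, had 497 and 293 and overlapped (0.32 ± 0.37).

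Among apolipoproteins and secreted liver proteins, 3 of 28 were higher and 3 lower at an unadjusted p of at most 0.05 in edgeR. Apoc3, an inhibitor of triglyceride clearance that insulin is known to repress through FoxO1, measured 5554 to 9416 CPM (median 7040) at high and 3666 to 5864 (median 4574) at low insulin. All 7 high-insulin libraries lay above the low-insulin mean, a log2 difference of 0.62 ± 0.14 (adjusted p = 0.192 in edgeR and 0.00549 in DESeq2), and the ranges overlapped only where high-insulin replicate 18 (5554) lay below low-insulin replicate 38 (5864). Its neighbour Apoa4 (Apoc3 at chr9:46232933-46235636 and Apoa4 at chr9:46240696-46243459, GRCm38) was looked at after its values were seen. Apoa4 measured 363 to 727 CPM (median 428) at high insulin and 157 to 341 in 6 low-insulin libraries, with 4628 in replicate 41. Its log2 difference was -0.92 ± 0.67 with that library and 0.89 ± 0.17 without it (edgeR adjusted p = 0.129). Selenop, the selenium carrier of plasma, had medians of 6175 and 5163 CPM (0.52 ± 0.16), and Apoc1 had 5692 and 4890 (0.36 ± 0.16).

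**Figure D3:**
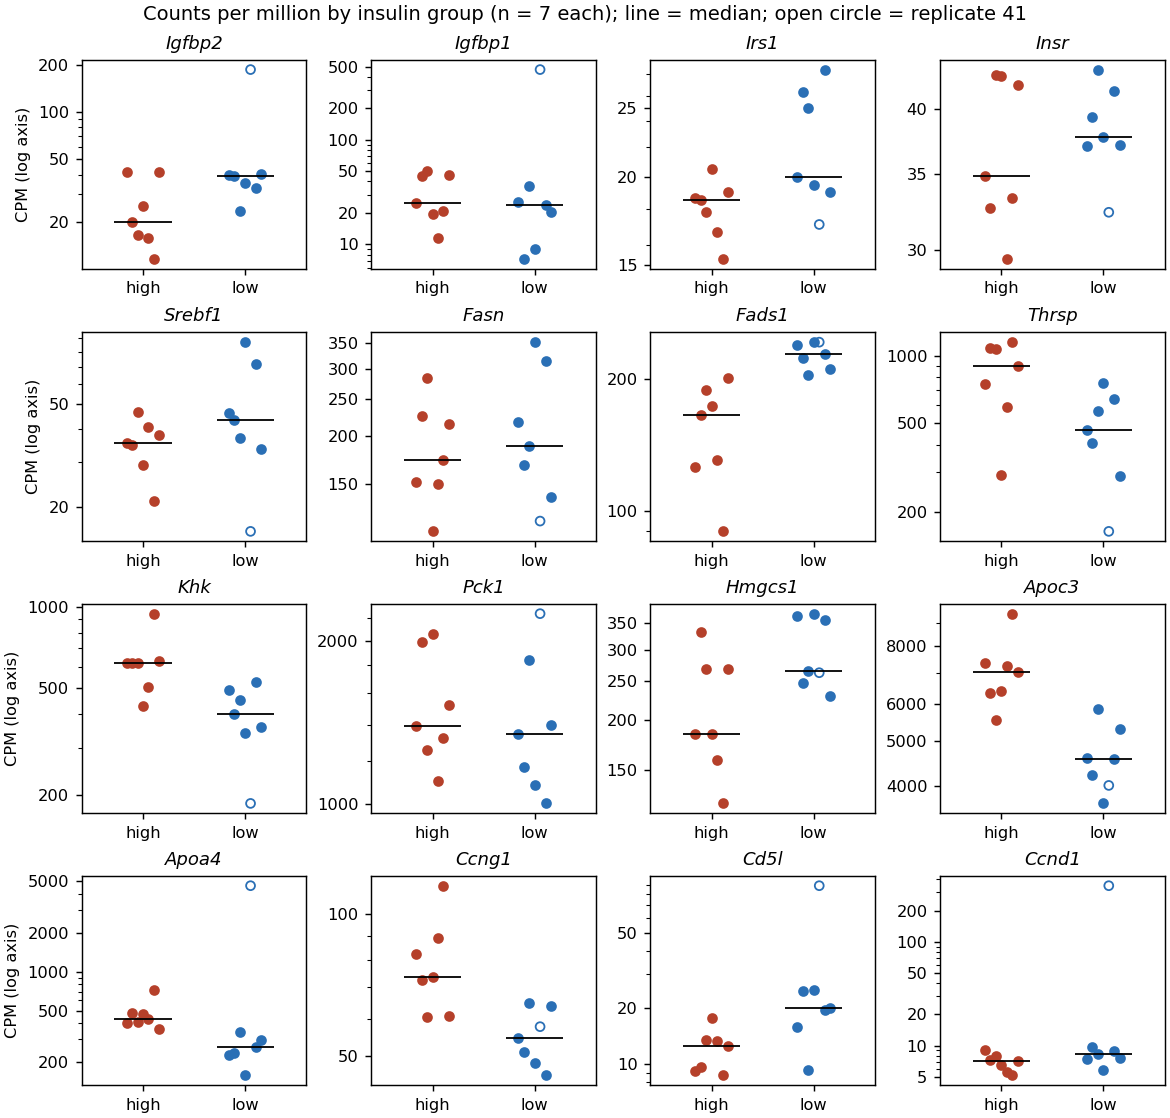
CPM on a log axis in each library of the high-insulin (left) and low-insulin (right) groups, n = 7 each, for 16 genes; lines are medians and the open circle is replicate 41. Fads1 alone of these 16 does not overlap between the groups, Insr, Fasn and Pck1 overlap almost fully, and replicate 41 lies far above the rest for Igfbp1, Apoa4 and Ccnd1.

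Of 26 glucocorticoid receptor genes and targets, 3 were higher and 0 lower at an unadjusted p of at most 0.05 in edgeR (median 0.19), 8 and 0 without replicate 41 (median 0.36), and 2 and 0 without replicate 26 (median 0.19). The most used readouts, Fkbp5 (medians 185 and 161 CPM) and Tsc22d3 (126 and 89.0), overlapped. The 3 genes were Obp2a (medians 230 and 105 CPM, 1.21 ± 0.40), Zbtb16 (30 and 19.2 CPM, 0.62 ± 0.28) and Cdkn1a, a cell cycle inhibitor shared with the p53 list (356 and 186 CPM, 0.58 ± 0.24). Obp2a was highest in replicate 26, at 848 CPM, and its log2 difference without that library was 0.69 ± 0.30. Of 19 p53 targets, 7 were higher and 0 lower with all libraries (median 0.26), 11 and 0 without replicate 41 (median 0.46), and 4 and 0 without replicate 26 (median 0.20). Fas, the death receptor gene, measured 12.2 to 20.4 CPM at high and 9.37 to 12.2 at low insulin (0.45 ± 0.11), and Ccng1, cyclin G1, had medians of 73.7 and 54.7 (0.52 ± 0.13). Sesn2 (0.48 ± 0.19) and the pro-apoptotic Bax (0.48 ± 0.22), the latter named after its values were seen, were also among the 7. Gadd45g, a stress gene that is not on the p53 list, measured 9.80 to 122 CPM at high and 5.40 to 21.6 at low insulin (1.68 ± 0.46).

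Some liver genes are known to be higher in females, since they respond to the pattern of growth hormone release. Of 10 such genes tested, 2 were higher and 0 lower at an unadjusted p of at most 0.05 in edgeR (median 0.24), 5 and 0 of 12 without replicate 41 (median 0.56), and 1 and 0 without replicate 26 (median 0.17). Cyp2c40 measured 42.7 to 99.7 CPM at high and 1.71 to 69.1 at low insulin (1.02 ± 0.43), and Fmo2 had medians of 55.2 and 39.6 (0.61 ± 0.25). Sult1e1, estrogen sulfotransferase, measured 15.2 to 64.7 CPM at high insulin and 1.83 to 16.9 in 6 low-insulin libraries, and 515 in replicate 41. Its log2 difference therefore turned from -1.55 ± 1.05 to 2.06 ± 0.47 without that library (edgeR adjusted p = 0.165). Igf1 and Socs2, targets of growth hormone, overlapped (0.11 ± 0.15 and -0.20 ± 0.38). Of 20 clock genes, 0 were higher and 0 lower at that p, with Dbp (0.10 ± 0.42) and Arntl (-0.16 ± 0.18) among them.

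Replicate 41 set the levels of many genes in the low-insulin group. Ccnd1, cyclin D1, measured 348 CPM in it against 5.16 to 9.72 in the other 13 libraries, a ratio of 35.9 to the next highest library. Cidec, a lipid droplet protein, had 70.0 CPM against at most 2.57, Lcn2 462 against at most 34.4, and Fgf21, a fasting hepatokine, 25.4 against at most 3.61. The acute phase gene Saa3 had 60 CPM, the early response genes Egr1, Klf6 and Atf3 had 28.7, 110 and 18, and the replication genes Mcm6 and Mcm2 had 13 and 7.06. In the list of 24 interferon-induced genes, 12 were lower at high insulin at an unadjusted p of at most 0.05 in edgeR with all libraries, but 5 were lower and 1 higher without replicate 41. The median log2 difference moved from -0.52 to -0.16. In replicate 41 Ifi44, Irf7, Rsad2 and Ifit3 were at 11.1, 30, 57.3 and 12.9 CPM, each above every other library. The insulin-repressed Igfbp1 and Igfbp2 were highest there, while Scd1 (104 CPM), G6pc and Khk were lowest. Its insulin was 2.19 and its glucose 106, and the part that low insulin played in this profile was not tested.

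Of 17 tested markers of resident macrophages (Kupffer cells), 17 had a log2 difference below 0, and 11 were lower and 0 higher at an unadjusted p of at most 0.05 in edgeR (median -0.61). Without replicate 41, 16 were below 0, and 7 were lower and 0 higher at this p (median -0.35). Cd5l, a macrophage-secreted protein, measured 8.72 to 17.5 CPM (median 12.5) at high and 9.34 to 88.7 (median 20.0) at low insulin, with the 88.7 in replicate 41. C1qc and C1qa, subunits of complement C1q, had medians of 11.5 and 17.1 and of 13.1 and 18.7 CPM. Csf1r, the receptor for the macrophage growth factor, had 13.5 and 20.0, and Timd4, which marks long-lived Kupffer cells, had 0.82 and 1.70. The summed CPM of the 20 listed markers ran from 117 to 166 at high and from 110 to 587 at low insulin, and without replicate 41 the upper end was 239.8. In bulk tissue, fewer cells of a type cannot be told apart from less RNA of those genes per cell.

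For other cell types, of 16 markers of sinusoidal endothelium, 4 were lower and 0 higher at an unadjusted p of at most 0.05 in edgeR, among them Oit3 and Cdh5 (medians 13.4 and 16.6, and 5.20 and 7 CPM), and their sum ran from 283 to 334 at high and 289 to 361 at low insulin. Of 17 markers of stellate cells and matrix, 4 were lower and 0 higher, namely Reln, Col1a2, Col3a1 and Col4a1. Without replicate 41, which held the highest Col1a2, Col3a1 and Col4a1, 3 were lower and 2 higher (median -0.11 against -0.20). Of 7 markers of lymphocytes and MHC class II, 6 lay below 0, with 0 lower at this p in all libraries (median -0.43) and 4 lower without replicate 41 (median -0.68). Of 5 adipocyte markers, 5 lay below 0 and 2 were lower (median -0.53), and without replicate 41 it was 3 below 0, with 2 lower and 1 higher. Haemoglobin genes were on the high side, with 4 of 5 erythroid markers higher at this p, and their sum was 1035 to 4447 CPM at high and 450 to 1796 at low insulin. Markers of pancreatic acinar cells summed to 71.2, 108 and 97.3 CPM in high-insulin replicates 13, 23 and 47, to 15.5 to 24.2 in the other 4, and to 9.56 to 18.4 in the low-insulin libraries. Cela1 was the 1 acinar marker that passed the filter on low counts. The part of these cell types in the differences above was not tested.

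**Figure D4:**
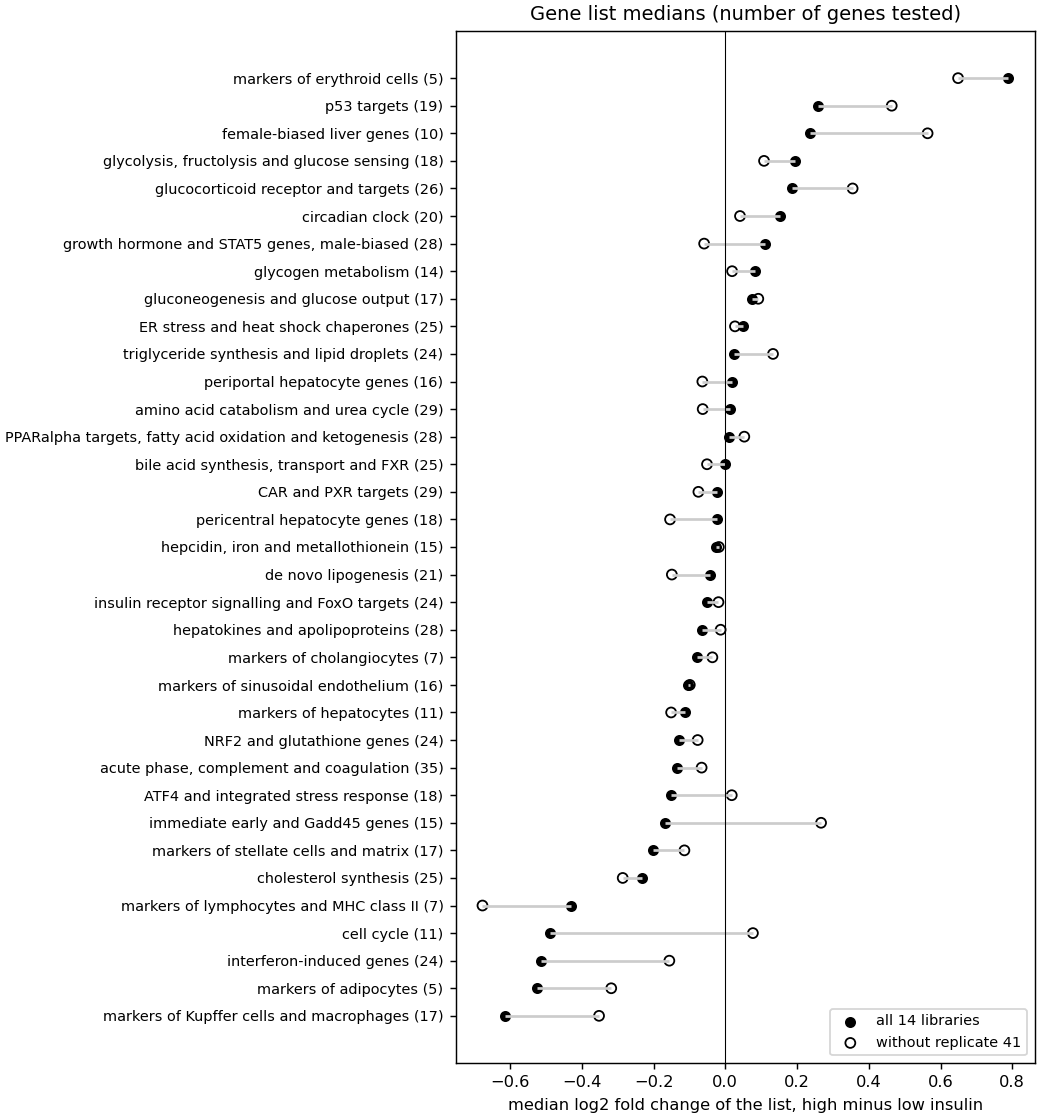
Median log2 fold change (high minus low insulin, horizontal axis) of each gene list with at least 5 genes tested; filled points use all 14 libraries and open points leave out replicate 41. Kupffer cell markers (-0.61, and -0.35 without that library) and cholesterol synthesis (-0.23 and -0.29) lie on the left in both fits, and erythroid markers and p53 targets (0.26 and 0.46) on the right.

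Insulin was then treated as a measured value rather than as 2 groups, with the slope given as the log2 change per doubling of insulin. Among the 14 mice on atglistatin, 707 of 11830 genes (5.98%) had a slope that passed edgeR's adjusted test, 251 upward (2.12%) and 456 downward (3.85%). Without replicate 41, the mouse with the lowest insulin, 0 of 11827 (0%) passed, the smallest adjusted p was 0.0578, and 2013 genes (17%) had an unadjusted p of at most 0.05 in edgeR, 1127 upward (9.53%) and 886 downward (7.49%). With all 14 libraries these were 2716 genes (23%), 1284 upward (10.9%) and 1432 downward (12.1%). Igfbp2 fell with insulin (slope -0.72 ± 0.09, edgeR adjusted p = 0.000757), and without replicate 41 its slope was -0.47 ± 0.12 (adjusted p = 0.109). With ranks of insulin in place of its log2 value, and all 14 libraries, the adjusted p of Igfbp2 was 0.0232 in edgeR. Khk rose with insulin (0.40 ± 0.07, adjusted p = 0.0032), and so did Fbp1, fructose bisphosphatase (0.34 ± 0.07, adjusted p = 0.00801), with slopes of 0.33 and 0.19 and adjusted p of 0.106 and 0.113 without that library. Of the 17 Kupffer cell markers, 17 had a slope below 0 and 13 passed the adjusted test downward (median slope -0.34). Of the 24 interferon-induced genes, 23 had a slope below 0 and 14 passed downward (median slope -0.31). Over all genes 3.85% passed downward. Without replicate 41, 0 of either list passed, and the median slopes were -0.19 and -0.07. Cidec, Lcn2, Igfbp1, Fgf21, Egr1 and Atf3, which fell with insulin in the 14 libraries, had slopes above 0 in the other 13.

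The 14 corticosterone mice on the control diet gave a separate set of livers for the same question, sharing no library with the atglistatin groups. Their insulin was 9.31, 14.5 and 16.8 in replicates 33, 32 and 34, and 27.7 to 39.8 in the other 11. Of 11693 genes, 295 (2.52%) had a slope that passed, 169 upward (1.45%) and 126 downward (1.08%), and edgeR gave 2239 (19.1%) at an unadjusted p of at most 0.05, 1120 upward (9.58%) and 1119 downward (9.57%). The count rested on the 3 mice of low insulin, with 11, 32 and 88 genes when replicate 32, 33 or 34 was left out, and 172 without replicate 30. Of the 1783 genes with an unadjusted p of at most 0.05 between the insulin groups on atglistatin that were also tested here, 1330 (74.6%) had the same direction, against 61.2% of all 11556 genes tested in both. Of 1981 genes at that p in the atglistatin slope without replicate 41, 1404 (70.9%) had the control-diet direction, against 60.3% of all genes. In reverse, of 293 genes called on the control diet, 216 (73.7%) had the same direction in the atglistatin slope with all 14 libraries. There 48 of them were called, 44 in the same direction, and no share over all genes was computed for that fit. Without replicate 41 the reverse share was 178 of 292 (61%), against 60.3% of all genes, and 0 were called there.

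Igfbp2 had the smallest p of all genes on the control diet. It measured 99.0, 65.3 and 65.2 CPM in the 3 mice of low insulin and 8.93 to 24.3 in the other 11, without overlap. Its slope of -1.45 ± 0.15 passed (edgeR adjusted p = 0.00017) and was past the threshold when each of the 14 libraries was left out in turn. With ranks of insulin in place of its log2 value the adjusted p was 0.0842 in edgeR. Without the 9 diabetic mice the slope was -1.33, about as large, with an adjusted p of 0.0643 in edgeR. On atglistatin the slope was shallower (-0.72), and the difference between the slopes, -0.73 ± 0.20, did not pass with all libraries (edgeR adjusted p = 0.0622). It passed without replicate 41 (-0.98 ± 0.21, adjusted p = 0.0102) and without control-diet replicate 36, 46 or 50 (adjusted p = 0.0481, 0.0447 and 0.0498). It did not pass without control-diet replicate 32, 33 or 34 (adjusted p = 0.222, 0.179 and 0.146 in edgeR). With ranks of insulin within each diet the difference was -0.01 (edgeR adjusted p = 0.958). In vehicle mice, whose insulin did not exceed 3.46, Igfbp2 averaged 156 ± 50.0 CPM (SD, n = 10) on the control diet and 201 ± 65.5 (n = 10) on atglistatin. Igfbp1 did not share this pattern, with a control-diet slope of 0.08 ± 0.40 (edgeR adjusted p = 0.941).

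On the control diet, 17 of 18 Kupffer cell markers tested had a slope below 0 (median slope -0.38). Of the 18, 9 passed the adjusted test downward, against 126 of 11693 genes (1.08%). Among the 9 were Cd5l (-0.53 ± 0.12, edgeR adjusted p = 0.0248), C1qa (-0.41 ± 0.09, adjusted p = 0.0202), C1qc (-0.31 ± 0.08, adjusted p = 0.0476) and Csf1r (-0.56 ± 0.13, adjusted p = 0.0321). For Cd5l the 2 slopes differed by 0.11 with a 95% interval from -0.28 to 0.49 in all libraries. Over the 18 markers the median difference of slopes was -0.01 with all libraries and -0.21 without replicate 41. The slopes of 0 of them differed by the adjusted test in either fit. Apoc3 had a slope of 0.58 ± 0.15 on the control diet (adjusted p = 0.0561) and 0.25 ± 0.06 on atglistatin (adjusted p = 0.0204, and 0.106 without replicate 41). Dct rose with insulin on both diets (1.11 ± 0.21 on the control diet, adjusted p = 0.0136, and 0.75 ± 0.11 on atglistatin, adjusted p = 0.00165, in edgeR). Without replicate 41 the Dct slope on atglistatin was 0.57 with an adjusted p of 0.0627 in edgeR. In cholesterol synthesis, 7 of 25 genes were upward and 0 downward at an unadjusted p of at most 0.05 in edgeR on the control diet (median slope 0.27), against 0 and 2 on atglistatin (median -0.08). Without replicate 41 the atglistatin counts were 0 upward and 14 downward (median -0.22). The slopes of 0 of these 25 genes differed between the diets with all libraries by the adjusted test, and those of 2 did without replicate 41. Of 25 endoplasmic reticulum stress and heat shock genes, 14 were downward and 0 upward at this p on the control diet, and 2 and 5 on atglistatin. The slopes of 0 of these 25 genes differed between the diets by the adjusted test, and that of 1 did without replicate 41.

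The slopes themselves differed between the diets for 156 of 12275 genes (1.27%), and for 212 of 12255 (1.73%) without replicate 41, of which 111 were among the 156. Akr1c19, an aldo-keto reductase, and Ephx1, microsomal epoxide hydrolase, led this test and were named after their values were seen. Akr1c19 measured 14, 14.1 and 15.7 CPM in the 3 control-diet mice of low insulin and 65.4 to 157 in the other 11. In the 7 low-insulin mice on atglistatin it measured 65.1 to 171, so the slope was 1.57 ± 0.20 on the control diet, 0.09 ± 0.08 on atglistatin, and the difference 1.48 ± 0.20 (edgeR adjusted p = 0.000539). Ephx1 had 124, 124 and 140 CPM in those 3 control-diet mice and 306 to 541 in the other 11, against 455 to 815 in the low-insulin mice on atglistatin (difference of slopes 1.02 ± 0.15, adjusted p = 0.00144). Gsta1, a glutathione transferase with close relatives among which reads may be shared, had a higher slope on the control diet than on atglistatin. The difference was 1.90 ± 0.40 (edgeR adjusted p = 0.0147). On atglistatin Gsta1 measured 2.65 to 8.77 CPM at high and 3.40 to 32.7 at low insulin, with the 32.7 in replicate 41. Hfe, a regulator of iron uptake, also had a higher slope on the control diet (difference 0.41 ± 0.08, edgeR adjusted p = 0.00747). Saa1, an acute phase protein whose close copy Saa2 may share reads, measured 423, 616 and 770 CPM in the same 3 mice and 7.31 to 221 in the other 11. On atglistatin it lay between 2.56 and 10.1 in all libraries but replicate 41 (80.7), and the difference of slopes was -1.91 ± 0.44 (adjusted p = 0.0257). The difference between the diets rested on the same control-diet mice, with 27, 40 and 70 genes when replicate 32, 33 or 34 was left out.

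**Figure D5:**
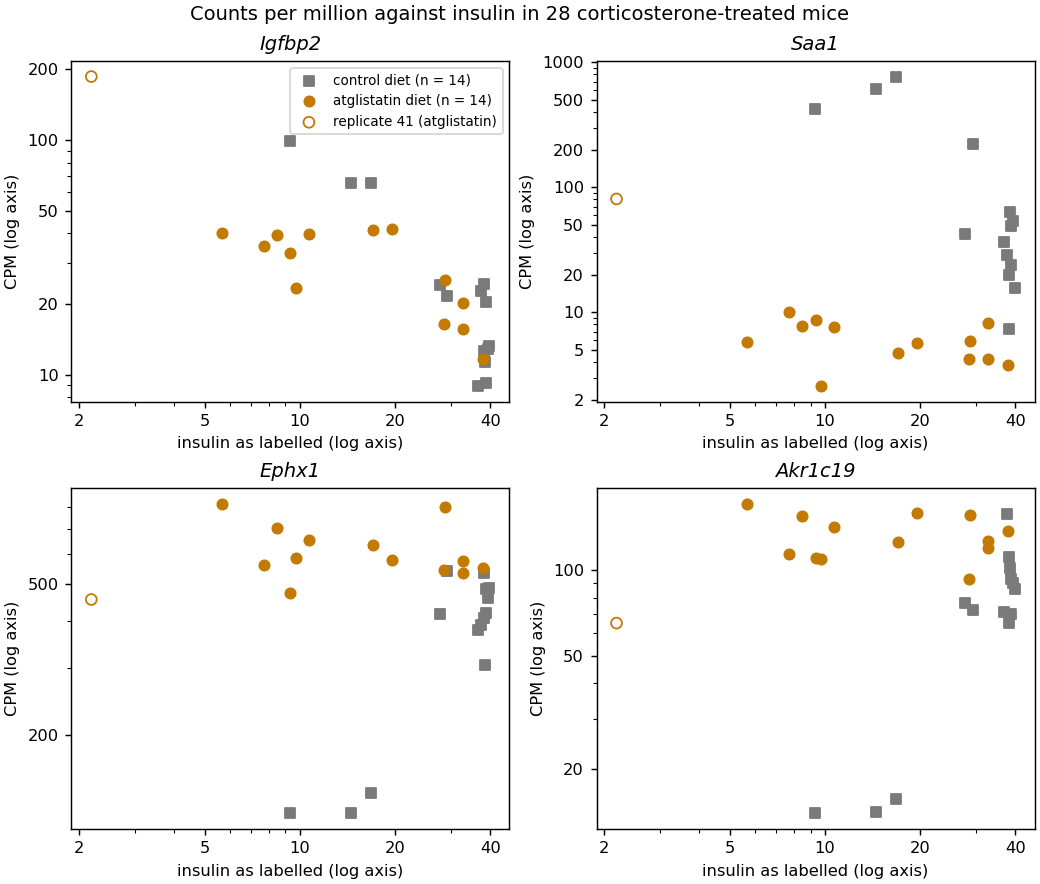
CPM (vertical log axis) against the insulin label (horizontal log axis, no unit given) in the 28 corticosterone-treated mice, each point a library; squares are the control diet, circles atglistatin, and the open circle is replicate 41. Igfbp2 is lower at higher insulin on both diets, and the 3 control-diet mice with insulin of 16.8 or less stand apart for Saa1 (423 to 770 CPM), Ephx1 (124 to 140) and Akr1c19 (14 to 15.7), while low-insulin mice on atglistatin lie at 2.56 to 80.7, 455 to 815 and 65.1 to 171.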

How the data were processed

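Per the labels' protocols, RNA of frozen liver was made into QuantSeq 3′ libraries and read as 50-base forward reads. The deposited table holds whole-number counts per gene for 48 libraries, made by the authors. The submitters' processing notes name GRCm38, R 3.6 and DESeq2 1.24.0, and the aligner and annotation stand in no source used here. Symbols were matched for 14219 of 14251 gene IDs. Counts were fitted with edgeR 4.0.16 (R 4.3.3; TMM scaling, genes filtered at a count of 10, quasi-likelihood test), with Benjamini-Hochberg adjustment over all genes tested and a threshold of 0.05. CPM values (counts scaled to a common library size) were computed with TMM scaling over all 48 libraries. Slopes used log2 insulin within each diet. Errors of log2 values are SE, and intervals cover 95%. DESeq2 1.42.0, limma voom 3.58.1, other filters and left-out libraries were tried. Total counts of 10832711 to 21175603 limit the precision of genes at few CPM. Replicate pairs of a group differed by more than sampling noise (chi-square per degree of freedom at least 11.5). Each library carries its own insulin and glucose value, but nothing else says that they are separate animals, so p-values measure the spread between these libraries. The edgeR fit was tested on simulated data. The members and lists were chosen with earlier results of these data known. Named genes are the 10 of smallest p, up to 4 of smallest p per list, and a set of insulin, lipid and corticosteroid genes named whatever their values. Apoa4, Apoc1, Dct, Bax, Ifit3, C1qa, Lyve1, Ephx1 and Akr1c19 were added after their values were seen. Some genes of the lists are counted in them but not reported here by name.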

Additional observations from a re-analysis of the deposited data

Results flagged for a closer look

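Of 270 sets of 7 values checked, 46 had 1 library whose gap to its neighbour, as a share of the group's range, exceeded 0.568. Chance gives this in about 1 of 20 sets drawn without regard to their values. Many genes here were picked for a small p with replicate 41 included, or after their values were seen. The 46 therefore cannot be set against that rate. In the high-insulin group the flagged sets were 4: glucose (0.632, replicate 26), Apoa4 (0.593, replicate 26), Cpt1a (0.779, replicate 23) and Ephx1 (0.581, replicate 23). In the low-insulin group they were 42, and replicate 41 was the outlying library in 39 of them. It lay apart on the first and second principal components (0.882 and 0.656). It was far above the other low-insulin libraries in Apoa4 (0.771), Igfbp1 (0.613), Igfbp2 (0.738), Fgf21 (0.686), Pnpla2 (0.721), Cidec (0.766), Lcn2 (0.682), Sult1e1 (0.606), Egr1 (0.768), Klf6 (0.798) and Atf3 (0.717). It was also far above them in Ccnd1 (0.877), Mcm6 (0.703), Mcm2 (0.705), Ifi44 (0.576), Irf7 (0.715), Rsad2 (0.706), Ifit3 (0.619), Saa1 (0.602), Saa3 (0.748), Lyve1 (0.87), Lpl (0.79) and the summed markers of cholangiocytes (0.662). Of that sum, 422.5 CPM in replicate 41, the single gene Tff3 made 366.4 CPM, so it does not speak for the other markers. Replicate 41 was far below the other low-insulin libraries in Cela1 (0.583), Apoc1 (0.747), Dct (0.788), Gab1 (0.68), Scd1 (0.742), Khk (0.577), Pklr (0.697), Gckr (0.683), G6pc (0.591), Fbp1 (0.706), Cyp2c40 (0.598), Igf1 (0.846), the summed markers of pancreatic acinar cells (0.642) and the summed markers of adipocytes (0.624). Cela1 made 9.32 of the acinar 9.56 CPM there. The adipocyte sum was 244 CPM, yet the adipocyte markers Cidec (70.0 CPM) and Lpl (61.1) were highest in replicate 41. The part of its low insulin in these values was not tested. The other outlying low-insulin values were Pxdc1 (0.639, replicate 42), Hfe (0.688, replicate 48) and the summed markers of hepatocytes (0.595, replicate 38).

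Slopes were followed for 46 of the named genes. Of these, 5 had slopes with insulin that differed between the diets by edgeR's adjusted interaction test with all 28 libraries. Over all genes it was 156 of 12275 (1.27%). Ephx1 and Akr1c19 were added after their values were seen, so the 5 in 46 cannot be read as a result about the named genes. The control-diet slope minus the atglistatin slope was -1.91 for Saa1, 1.90 for Gsta1, 1.02 for Ephx1, 1.48 for Akr1c19 and 0.41 for Hfe.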

How the results depend on the processing

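No paired analysis was possible because the high-insulin and low-insulin groups share no replicate number. For high versus low insulin, the count of 0 called genes was 98 with DESeq2, 109 with DESeq2 and no replicate 41, 34 with all 48 libraries in 1 edgeR fit (0 when replicate 41 was left out of it) and 707 with log2 insulin in place of groups. The 1816 of 11830 genes at an unadjusted p of at most 0.05 became 812 with the label number range as a term and 803 with glucose as a term. In the libraries with numbers below 30 the count was 1202 of 12844. Leaving out 1 library gave 0 called genes each time. Glucose differed by 15.8 without replicate 26 (exact permutation p = 0.0542), 28.5 without replicate 41 (exact permutation p = 0.0536) and 15.7 without both (exact permutation p = 0.0823).

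Slopes on atglistatin were called for 294 genes with ranks of insulin, and for 0 (without replicate 41) to 854 with 1 library left out. On the control diet they were called for 0 with ranks (798 at an unadjusted p of at most 0.05) and 0 without the 9 diabetic mice (1296), and for 11 to 407 with 1 library left out (1395 to 2408 unadjusted). The slopes differed between diets for 3 genes with ranks and for 27 to 230 with 1 library left out.

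Some genes turned direction. Apoa4 was 0.80 with DESeq2 and 0.89 with DESeq2 and no replicate 41, and Sult1e1 was 2.02 in the latter. With 1 library left out, the atglistatin slope ran from -0.85 to 0.31 for Igfbp1, -0.96 to 0.03 for Fgf21, -1.53 to 0.54 for Cidec, -0.87 to 0.39 for Lcn2, -1.18 to 0.19 for Egr1 and -1.03 to 0.32 for Atf3. The slope difference of Cidec ran from -1.24 to 0.78. The upper slopes and the -1.24 are those without replicate 41. The cause was not tested. The alternatives with DESeq2 and no replicate 41, 47 libraries, numbers below 30, and libraries left out of the slopes were chosen after seeing the data.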
